A study of Saccharomyces cerevisiae with 16 samples.

Results

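The 6 genes described here encode the core zinc transporters of budding yeast, their shared regulator and a dehydrogenase gene that the same regulator controls. They are ZRT1 (YGL255W), ZRT2 (YLR130C), ZRT3 (YKL175W), ZRC1 (YMR243C), ZAP1 (YJL056C) and ADH4 (YGL256W). They were found by systematic name among the 5698 transcript rows of a table of read counts, and all 6 passed the filter that left 5268 host rows for testing. They were chosen by function and by levels and fold changes already seen in these libraries, the high ZRT1 of modHTH among them. Which other values led to each choice is not recorded. Their levels and fold changes are therefore given as a description, and no test is read for them. Where counts of them past a test's threshold appear, they stand beside the share of all genes and support nothing.

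Zinc is a cofactor of many yeast enzymes and is toxic in excess, so its uptake and storage are tightly controlled. Zrt1 is the high-affinity importer of the plasma membrane and Zrt2 the low-affinity importer. Zrc1 moves zinc into the vacuole, the main store, and Zrt3 releases it from there. Zap1 is a transcription factor that senses zinc. In zinc-deficient cells it activates ZRT1, ZRT3, ZRC1, ADH4 and its own gene, while its effect on ZRT2 depends on how severe the deficiency is. ADH4 encodes an alcohol dehydrogenase isoenzyme.

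The cells were strain BY4741, which lacks functional HIS3, LEU2, MET17 and URA3, and all groups carried a low copy plasmid. One group had the POT1-ccdB plasmid with no reporter and is called the control here. Its plasmid may differ from the others by more than that reporter. The other 7 groups carried an mCherry reporter driven by the RPS3 promoter and ended by the RPS3 terminator, which was unmodified in WT. In modNNN, modNTN, modNAA, modNGG, modHNH and modHTH the terminator held 3 inserts of 9 bp each. Each letter names an insert in order. N stands for random sequence, and T, H and A each stand for a fixed short motif, whereas the labels do not describe G. Cultures in uracil-free synthetic medium were collected after 4 h at 30 °C at an OD600 of 0.7, and the zinc content of the medium is not given.

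The assay, HT-5PSeq primed with oligo(dT) alone, reads polyadenylated RNA with a 5′ phosphate, which consists mostly of decay intermediates. A higher value can thus come from more transcript or from more of it being in decay, and these cannot be told apart. Nor can a change in every cell be told apart from a change in some cells of a culture. Each group was labelled as 2 libraries, but modNGG, modHNH and modHTH each had a second library that failed, with 477, 267 and 69 reads and none on the 6 zinc genes. They were left out, so those 3 groups rest on 1 library each, and the 13 usable libraries held 1070844 to 2939907 reads. The labels do not state that a group's 2 libraries are separate cultures, so the spread between them may be technical. Levels are reads per 1000000 host reads (CPM), with SD over n = 2 libraries where a group has both, and intervals are 95% Wilson intervals that cover counting error only.

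The zinc genes fell into a steady member, ZRT2, and members that ranged widely, above all ZRT1 and ZAP1. The highest library over the lowest was 3.95-fold for ZRT1, 3.35-fold for ZAP1, 2.18-fold for ADH4, 2.15-fold for ZRC1, 1.86-fold for ZRT3 and 1.28-fold for ZRT2. The SD of the 8 group means on the log2 scale was 0.64 for ZRT1 and 0.58 for ZAP1, larger than in 99.8% and 99.5% of the 4585 genes with a mean of at least 20 CPM. For ZRT2 it was 0.11, larger than in 9.71% of them, and the median gene had 0.20. Over the 5 groups with both libraries the same SD was 0.28 for ZRT1, 0.11 for ZAP1 and 0.12 for ZRT2, so most of the range of ZAP1 lay in the 3 groups with 1 library.

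**Figure D1:**
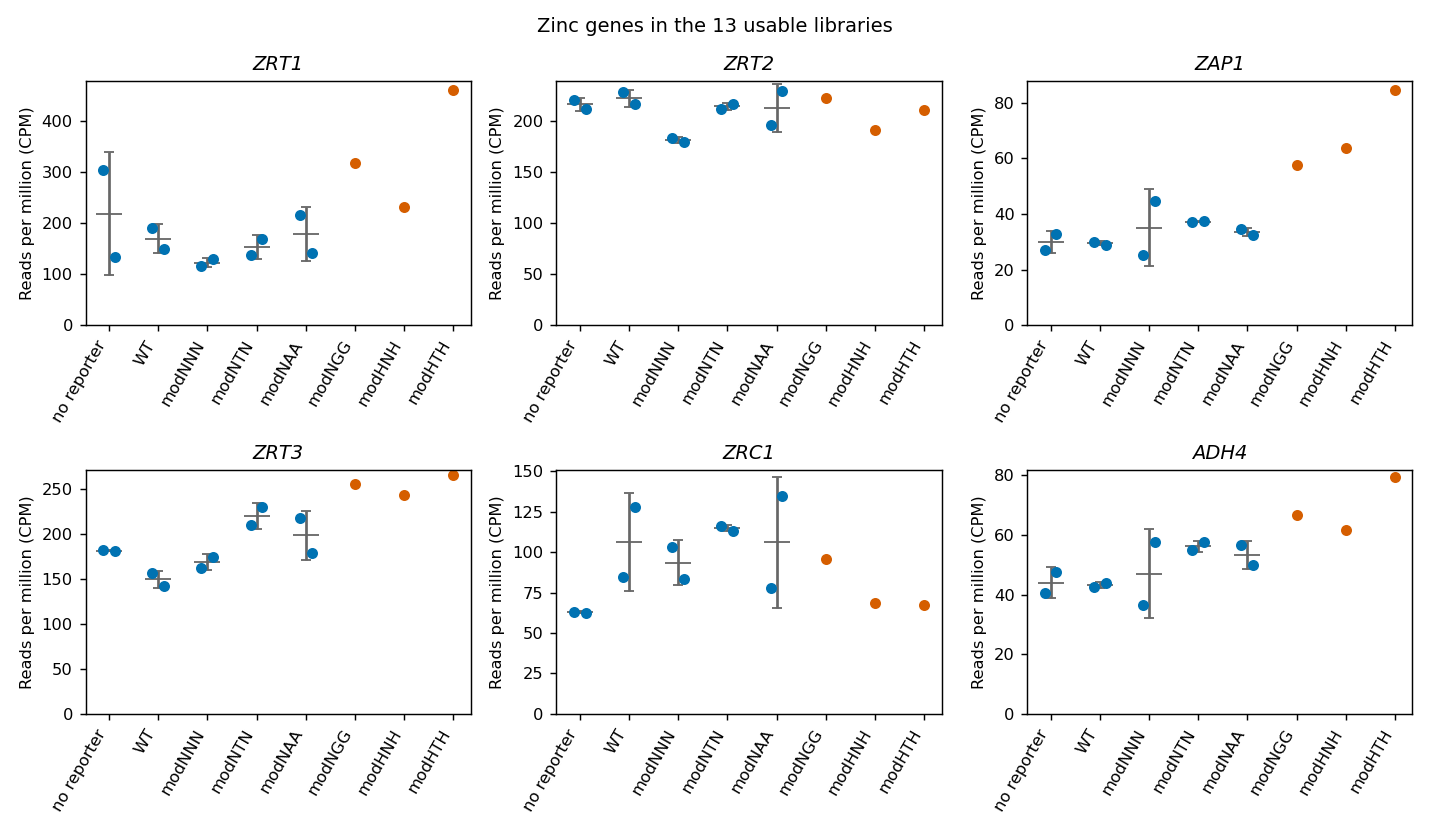
Level of each zinc gene in CPM (vertical axes, from 0) by group (horizontal axes). Points are the 13 usable libraries, blue where the group has 2 and orange where it has 1, and bars give the mean ± SD of 2. ZRT2 stayed between 179 and 229, whereas ZRT1 ran from 117 to 460 and ZAP1 from 25.3 to 84.6.

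ZRT1, the high-affinity importer, lies on chromosome VII, with its coding sequence on the plus strand of the R64 genome at chrVII:20978-22108 and its counted transcript at chrVII:20662-22212. It was at 303 and 134 CPM in the control, at 189 and 149 in WT and at 117 and 129 in modNNN. It was at 137 and 170 in modNTN and at 217 and 142 in modNAA. The single libraries gave 317 in modNGG, 231 in modHNH and 460 in modHTH. The lowest group was modNNN, and the modHTH library was higher than any other, with an interval of 423 to 500 that no other library's interval reached.

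In order of the group means, ZRT1 was at 123 ± 8.90 CPM in modNNN, 153 ± 23.3 in modNTN, 169 ± 28.4 in WT, 179 ± 52.9 in modNAA and 218 ± 120 in the control (SD, n = 2). The libraries of modNTN, WT and modNAA overlapped one another, and those of the control enclosed all 3 groups. The modHNH library was above the higher modNAA library by less than their counting intervals, 206 to 258 against 196 to 240. The modNGG library and the first control library were likewise within theirs, 294 to 343 against 284 to 324. One library without any reporter thus had as much ZRT1 as the modNGG library.

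The 2 control libraries differed more in ZRT1 than in any other of the 4585 genes. The first was 2.33-fold above the second, a log2 difference of 1.22, from 891 and 143 reads. The next genes in that ranking were ALO1, which encodes the last enzyme of erythroascorbate synthesis, at 1.16, and CSR2 at −1.15. The median gene differed by 0.17 in either direction. None of the other zinc genes shared this difference, since ZRT2, ZRT3, ZAP1, ZRC1 and ADH4 differed between the same libraries by 1.03-fold to 1.16-fold.

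ZRT1 also varied within other groups. The modNAA libraries differed 1.58-fold, more than 96.2% of genes did, the WT libraries 1.34-fold, the modNTN libraries 1.27-fold and the modNNN libraries 1.13-fold. Pooled over the 5 groups, the SD between libraries of a group was 0.47 on the log2 scale for ZRT1, larger than for 98.8% of genes and above the median of 0.19. It was 0.085 for ZRT2, 0.14 for ZRT3, 0.23 for ADH4, 0.28 for ZAP1 and 0.30 for ZRC1. Within modNNN the wide pair was ZAP1, 1.77-fold, with ADH4 at 1.59-fold, and within modNAA it was ZRC1, 1.67-fold.

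**Figure D2:**
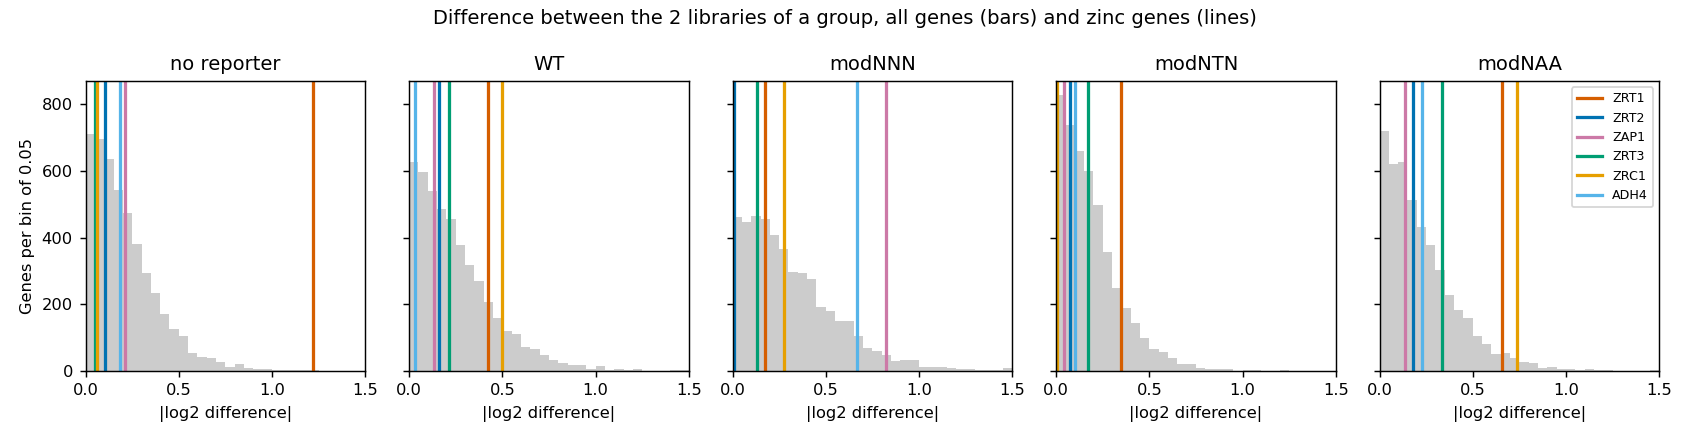
Size of the log2 difference between the 2 libraries of a group (horizontal axes) and number of genes per bin of 0.05 (vertical axis), one panel for each of the 5 groups with both libraries. Grey bars count the 4585 genes, with differences over 1.5 in the last bin, and coloured lines mark the zinc genes. In the control the ZRT1 line at 1.22 lies beyond the grey bars' bulk, whose median is 0.17.

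ZRT2, the low-affinity importer (coding sequence chrXII:402794-404062, minus strand), was the steadiest member. It was at 221 and 212 CPM in the control, at 228 and 216 in WT and at 183 and 179 in modNNN. It was at 212 and 217 in modNTN and at 196 and 229 in modNAA. The single libraries were at 223 in modNGG, 191 in modHNH and 211 in modHTH. Both modNNN libraries were the lowest of the 13, and they are the reference of the comparisons among modified terminators.

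The balance of the importers therefore followed ZRT1. Per kilobase of coding sequence, the ratio of ZRT1 to ZRT2 was 1.54 and 0.707 in the 2 control libraries, 0.931 and 0.774 in WT and 0.714 and 0.808 in modNNN. It was 0.724 and 0.877 in modNTN, 1.24 and 0.694 in modNAA, 1.60 in modNGG, 1.35 in modHNH and 2.44 in modHTH. ZRT1 exceeded ZRT2 on this scale in 5 libraries, namely the first control, the first modNAA and the 3 single libraries.

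ZAP1, the regulator (coding sequence chrX:330431-333073), was the least abundant member, with 35 to 118 reads per library. It was at 27.2 and 32.7 CPM in the control, at 30.1 and 28.9 in WT and at 25.3 and 44.8 in modNNN. It was at 37.2 and 37.4 in modNTN and at 34.5 and 32.4 in modNAA. The single libraries were at 57.4 in modNGG, 63.8 in modHNH and 84.6 in modHTH. All 3 were above every other library, the nearest being the second modNNN library, whose interval of 35.3 to 56.9 overlapped those of modNGG (48.0 to 68.8) and modHNH (51.5 to 79.1) but not that of modHTH (69.5 to 103).

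ADH4, which lies upstream of ZRT1 (coding sequence chrVII:15159-16307, plus strand), followed the pattern of ZAP1. It was at 40.5 and 47.6 CPM in the control, at 42.4 and 43.9 in WT and at 36.5 and 57.5 in modNNN. It was at 54.9 and 57.5 in modNTN and at 56.6 and 49.9 in modNAA, and at 66.7, 61.5 and 79.5 in the modNGG, modHNH and modHTH libraries. The first modNNN library was the lowest of the 13 for both genes and the modHTH library the highest. ADH4 had 51 to 137 reads per library.

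ZRT3, the exporter of vacuolar zinc (coding sequence chrXI:118793-120304, plus strand), was at 182 and 181 CPM in the control, at 156 and 143 in WT and at 162 and 175 in modNNN. It was at 210 and 230 in modNTN and at 218 and 179 in modNAA. The single libraries were at 255 in modNGG, 243 in modHNH and 265 in modHTH, above the other 10, whose range was 143 to 230. WT was the lowest group, at 149 ± 9.78 (SD, n = 2), and both modNTN libraries were above all libraries of the control, WT and modNNN.

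ZRC1, the importer into the vacuole (coding sequence chrXIII:754838-756166, minus strand), had another order. It was at 63.3 and 62.6 CPM in the control, at 84.9 and 128 in WT and at 103 and 83.6 in modNNN. It was at 116 and 113 in modNTN, at 77.5 and 135 in modNAA, and at 95.4, 68.4 and 67.5 in the modNGG, modHNH and modHTH libraries. The 2 control libraries were the lowest of the 13, with modHTH and modHNH next. Their intervals overlapped: 54.8 to 73.0 and 49.3 to 79.4 in the control, and 54.2 to 84.2 in modHTH.

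The ratio of exporter to importer of the vacuole, ZRT3 over ZRC1 per kilobase of coding sequence, was 2.52 and 2.55 in the control libraries, 1.62 and 0.982 in WT and 1.38 and 1.84 in modNNN. It was 1.59 and 1.79 in modNTN, 2.47 and 1.17 in modNAA, 2.35 in modNGG, 3.12 in modHNH and 3.45 in modHTH. The control libraries were above all 8 libraries of the reporter groups with both libraries, and modHNH and modHTH were above the control.

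Per kilobase of coding sequence, the median over the 13 libraries was 167 CPM for ZRT2, 150 for ZRT1, 120 for ZRT3, 63.9 for ZRC1, 47.8 for ADH4 and 13.1 for ZAP1. The regulator's gene was the lowest and the plasma membrane importers' genes the highest. Counting was over whole transcripts, and several of these overlap a neighbour. The counted ZRC1 transcript, 4084 nt long, shares 239 nt with RPL20A on the same strand, and RPL20A, a ribosomal protein gene, was at 735 to 1391 CPM, with its 3 lowest values in the modNGG, modHNH and modHTH libraries. ZRT3 shares 213 nt with TPO5, ZAP1 120 nt with LOG1 and ZRT2 66 nt with DIP2, each on the opposite strand. The strand setting of the counting is not given. The deposited annotation gave no transcript position for ZAP1, so its 120 nt refer to its coding sequence. TPO5 (39.3 to 84.3 CPM) and LOG1 (227 to 312 CPM) were lowest in modHTH, where ZRT3 and ZAP1 were highest.

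ADH4 and ZRT1 are neighbours on chromosome VII, 4161 nt apart between their counted transcripts. FZF1, which encodes an activator of the sulfite pump gene, lies 76 nt from ZRT1. It was at 18.8 to 38.0 CPM and was lowest in modHTH, the library with the most ZRT1. MNT2, a mannosyltransferase gene 144 nt from ADH4, ranged from 23.1 to 55.8 CPM, with its lowest value in modHNH.

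The comparison of all reporter groups with the control asks whether the reporter as such goes with a change in host genes. The fitted log2 fold change, with the 7 reporter groups weighted equally, was −0.14 for ZRT1 (SE 0.22), −0.12 for ZRT2 (0.12) and 0.16 for ZRT3 (0.13). It was 0.58 for ZAP1 (0.20), 0.48 for ZRC1 (0.19) and 0.34 for ADH4 (0.17). At an adjusted threshold of 0.05, edgeR's quasi-likelihood test called none of the 6, where 0.38% of genes were called lower and 0% higher, and nothing is read from that count for genes chosen in this way. The value of ZRT1 rested on the first control library, without which it was 0.62. Over the 5 groups with both libraries the values were 0.11 for ZAP1, 0.10 for ADH4 and −0.09 for ZRT3, so those of ZAP1 and ADH4 rested on the single libraries and that of ZRT3 changed sign.

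WT against the control holds the reporter with the unmodified terminator. The log2 fold change was −0.47 for ZRT1 (SE 0.29), −0.33 for ZRT3 (0.17) and 0.69 for ZRC1 (0.23). For ZRT2, ZAP1 and ADH4 it was −0.02, −0.04 and −0.06. ZRC1 was higher in both WT libraries than in both control libraries, 84.9 and 128 against 63.3 and 62.6 CPM. Without the first control library the value of ZRT1 was 0.29, with the opposite sign. No member was called, where 0.038% of genes were called lower and 0% higher.

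In modNNN, with random inserts in the terminator, against WT the log2 fold change was −0.47 for ZRT1 (SE 0.30), −0.30 for ZRT2 (0.15) and 0.17 for ZRT3 (0.17). It was 0.25 for ZAP1 (0.26), −0.18 for ZRC1 (0.22) and 0.12 for ADH4 (0.23). For both plasma membrane importers the 2 modNNN libraries were below the 2 WT libraries. No member was called, where 0.019% of genes were called higher and 0% lower.

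The other 5 comparisons set against modNNN the terminators in which T, A, G or H inserts replaced some or all random inserts. The loss of random inserts and the inserts that replaced them cannot be told apart. All 5 comparisons use the same 2 modNNN libraries as reference, so their values are not independent of one another and are set side by side only. For ZRT1 the log2 fold change was 0.28 in modNTN (SE 0.30), 0.51 in modNAA (0.30), 1.40 in modNGG (0.34), 0.93 in modHNH (0.36) and 1.96 in modHTH (0.34). The last is 3.90-fold, from fitted means of 477 against 122 CPM. The SE values draw partly on the spread of all genes, while ZRT1 itself had an SD of 0.47 between libraries of a group. For ZRT1 in modHTH, DESeq2 gave an SE of 0.57. ZRT1 had the second highest value of the 5268 genes in modHTH and the fourth highest in modNGG.

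For ZAP1 the values were 0.04 in modNTN (SE 0.26), −0.11 in modNAA (0.26), 0.74 in modNGG (0.28), 0.88 in modHNH (0.30) and 1.32 in modHTH (0.29), the last being 2.50-fold and the 16th highest of all genes. For ADH4 they were 0.21, 0.14, 0.53, 0.41 and 0.81, with SE from 0.22 to 0.28. For ZRT3 they were 0.35, 0.20, 0.63, 0.55 and 0.71, with SE from 0.17 to 0.20. ZRT2 stayed between 0.10 and 0.33. ZRC1 was at 0.26, 0.15, 0.06, −0.42 and −0.41, with SE from 0.22 to 0.31. In modHNH and modHTH the fitted value of the importer into the vacuole was thus below modNNN while that of the exporter was above it. For ZRC1 this was not resolved. The counting intervals of modHNH (55.6 to 84.2 CPM) and modHTH (54.2 to 84.2) overlapped that of the second modNNN library (70.2 to 99.6).

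**Figure D3:**
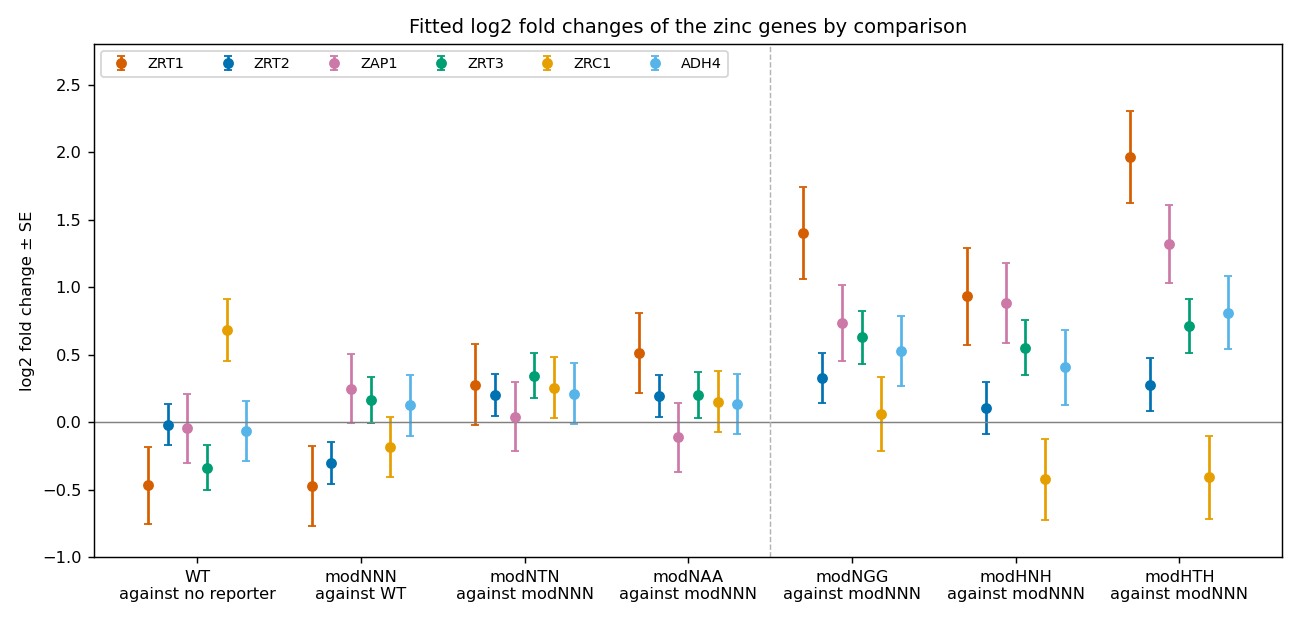
Fitted log2 fold change of each zinc gene (vertical axis, bars ± SE) in 7 comparisons (horizontal axis). Comparisons to the right of the dashed line rest on 1 library of the modified group, and those against modNNN share its 2 libraries. ZRT1 lies above the other members in modNGG (1.40) and modHTH (1.96), and ZRC1 is below 0 in modHNH and modHTH.

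The median over the 6 genes was 0.23 in modNTN, 0.17 in modNAA, 0.58 in modNGG, 0.48 in modHNH and 0.76 in modHTH, beside medians over all genes of −0.01 or nearer to 0. All genes spread more in the single libraries as well. Their SD of log2 fold change was 0.24 in modNTN, 0.27 in modNAA, 0.41 in modNGG, 0.48 in modHNH and 0.52 in modHTH. In modHTH 1 of 6 members, ZRT1, was called higher, where 0.0569% of all genes were, namely ZRT1, BMH2, which encodes a 14-3-3 protein, and ASN1, an asparagine synthetase gene. ZRT1 was part of what led to the choice, so this count is no result about the group.

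In modNTN, modNAA, modNGG and modHNH 0 of 6 members and 0% of genes were called in either direction. With an unadjusted p under 0.05 there were 2 members in the reporter comparison (18.2% of all genes), 1 in WT (8.94%) and 0 in modNNN, modNTN and modNAA (5.41%, 1.92% and 6.21%). There were 3 in modNGG (14.4%), 3 in modHNH (15.8%) and 4 in modHTH (19.5%). DESeq2 gave ZRT1 a log2 fold change of 1.97 in modHTH. Its own filter left 3 of the 6 there, with no adjusted p for ZAP1, ZRC1 and ADH4. It called no member in the other 7 comparisons, and nothing is read from that count. In the test of any difference between the 8 groups edgeR called 0 members and 0.019% of genes. Without adjustment 5 members passed, beside 19.2% of all genes, and DESeq2 called ZRT3 among 231 genes. Over the 19 alternatives this count ran from 0 to 5 members, the most with all 16 libraries, where 915 genes were called. This count also changed with library totals and with no filter on low counts, with ZRT1 and ZAP1 called in both. It changed as well when either modNNN library, the second WT library or the first modNAA library was left out. Nothing is read from these counts.

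The fold changes against modNNN rest on its 2 libraries, which differed in ZAP1 and ADH4. In modHTH the log2 fold change of ZRT1 stayed between 1.76 and 2.05 over 18 alternatives, all of which kept the single modHTH library. That of ZAP1 ran from 0.94 without the first modNNN library to 1.81 without the second, and that of ADH4 from 0.49 to 1.19. ZAP1 likewise ran from 0.35 to 1.23 in modNGG and from 0.51 to 1.37 in modHNH. None of these ranges covers variation of the single modNGG, modHNH or modHTH library.

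Counts of members past the threshold changed under the alternatives, as did those of all genes. Without the second modNNN library they were 4 in modHTH (all but ZRT2 and ZRC1), 2 in modNGG (ZRT1 and ZAP1) and 1 in modHNH (ZAP1), where 379, 203 and 284 of all genes were called higher. With all 16 libraries they were 3 in modHTH, 1 in modNGG (ZRT1) and 1 in modHNH (ZAP1), where 125, 30 and 66 were. In modHTH the count was 0 without the first modNNN library, without either modNTN library and with replicate number as a block. In the reporter comparison ZAP1 was called with all 16 and also without the first modNNN library, where its log2 fold change was 0.61. Calls higher over all genes in that comparison ran from 0 to 101 over the alternatives.

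Fold changes over all genes followed coding length in the same comparisons. The Spearman correlation over 5210 genes was 0.24 in modNTN, 0.20 in modNAA, 0.31 in modNGG, 0.38 in modHNH and 0.37 in modHTH, with longer genes higher. ZAP1, with 2643 coding bases, is the longest member and ZRT1, with 1131, the shortest. With the trend over length removed, the modHTH value was 2.05 for ZRT1, 1.09 for ZAP1, 0.89 for ADH4 and 0.70 for ZRT3.

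ZRT3, ZAP1 and ADH4 were higher in all 3 single libraries than in the other 10, a pattern that 10.2% of genes shared, and no member was lower in all 3, as 6% of genes were. ZRT1 missed it because of the first control library alone, its other 9 libraries lying between 117 and 217 CPM. These 3 groups are also those whose second library failed. What separates the 3 libraries from the rest, terminator or preparation, cannot be told apart.

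Within the 13 libraries ZAP1 and ADH4 ran closest together of all pairs of members. Their log2 levels had a Pearson r of 0.94 and a Spearman rho of 0.99, and r was 0.92 over the 10 libraries of the groups with both. ADH4 was the 14th most similar of 4584 genes to ZAP1 over 13 libraries and the fourth over 10. ZRT3 went with ADH4 (r = 0.87) and with ZAP1 (0.83), falling to 0.68 and 0.49 over the 10 libraries. These are descriptions over libraries that share depth and preparation, so no p is given.

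The likeness of ZRT1 to its regulator rested on the single libraries. Its r with ZAP1 was 0.67 over 13 libraries but 0.22 without modHTH and modNGG, its 2 farthest libraries, and −0.13 over the 10 libraries. With ADH4 it was 0.63 and then 0.17 without the same 2 libraries. Leaving out each library in turn moved r both ways, from 0.44 to 0.84 with ZAP1 and from 0.40 to 0.81 with ADH4. The r of ZRT1 with ZRC1 was −0.51 over 13 and −0.52 over 10 libraries, and with ZRT2 0.50 and 0.57. The first control library had 303 CPM of ZRT1 with 27.2 of ZAP1 and 40.5 of ADH4, the second lowest value of each.

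**Figure D4:**
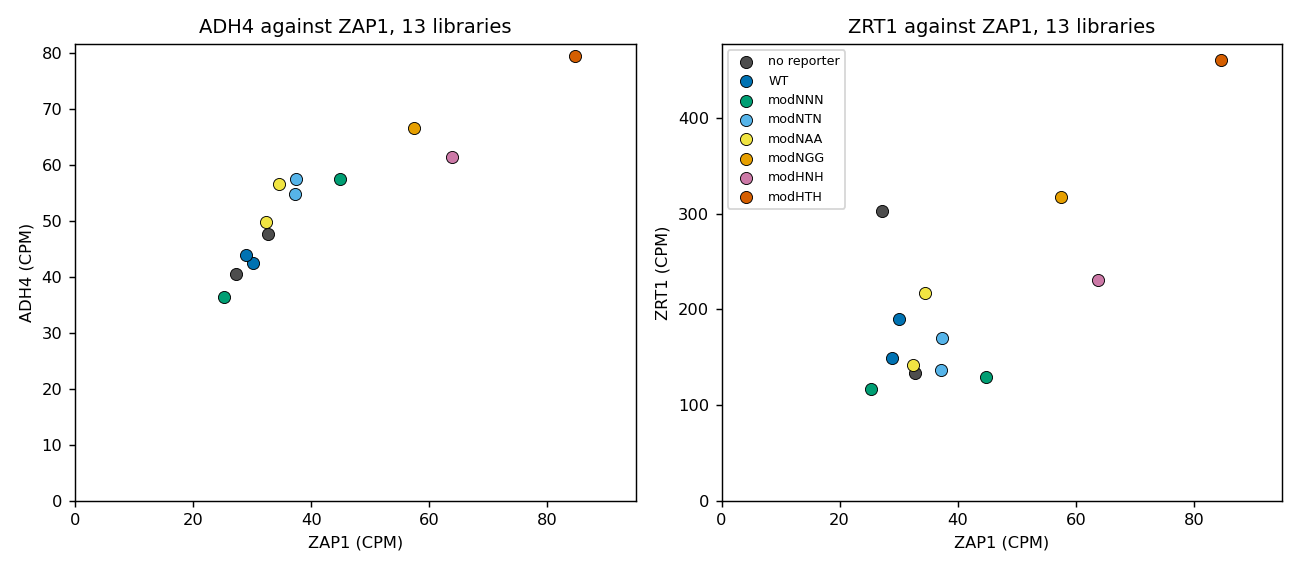
Level of ADH4 (left) and of ZRT1 (right) against that of ZAP1, all in CPM, in the 13 usable libraries, coloured by group. ADH4 rises with ZAP1 across the whole range (r = 0.94 on the log2 scale), whereas ZRT1 spreads from 117 to 303 at ZAP1 levels up to 44.8.

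The genes whose pattern was most like that of ZRT1 over the 13 libraries, among 4579 with at least 20 CPM, were not zinc genes. They were EFT2 (elongation factor 2, r = 0.91), YDR341C (arginyl-tRNA synthetase, 0.90), ECM33 (a cell wall protein, 0.89), SSE1 (an Hsp110 chaperone, 0.89), MIY3 (0.89), TKL1 (transketolase, 0.88), RPL17A (a ribosomal protein, 0.88) and OYE2 (an NADPH oxidoreductase, 0.87). Over the 10 libraries of the groups with both, r was 0.89 for EFT2 and 0.84 for YDR341C but 0.64 for RPL17A and OYE2. The most opposite were TFB3, a subunit of the transcription factor TFIIH (−0.92), YJR112W-A (−0.91), ATG44 (−0.91) and NUP49, a nucleoporin gene (−0.89). In all, 47 genes were above 0.8 and 54 below −0.8. EFT2 and RPL17A have near-identical copies, so reads may be split between copies. The closest zinc gene was ZRT3, at 0.72.

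Other genes tied to zinc were described from a list of 20 that held further transporters, Zap1 targets and zinc enzymes. Of these, 19 were tested, and YKE4, a zinc transporter gene with 0 or 1 read per library, was not. edgeR called 0 of the 19 in each of the 8 comparisons and in the test of any difference. It called at most 0.38% of all genes in any of these, so nothing is read from the 0 of 19. With an unadjusted p under 0.05 there were 4 in the reporter comparison (21.1%, beside 18.2% of all genes), 1 in WT (5.26% beside 8.94%) and 0 in modNNN, modNTN and modNAA. There were 2 in modNGG (10.5% beside 14.4%), 4 in modHNH (21.1% beside 15.8%) and 4 in modHTH (21.1% beside 19.5%), and in the test of any difference 3 (15.8% beside 19.2%). DESeq2 called TSA1, a peroxiredoxin gene, lower in reporter libraries (−0.44), among 54 of all genes called lower. It gave adjusted p-values for 9 of the 19 in that comparison and for 4 to 19 in the others. The median log2 fold change of the list in modHTH was 0.03, with 10 of 19 above 0. The core genes had 0.76 and 5 of 6, but they were chosen partly by such values, so nothing is read from the contrast.

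Among the 5 with the widest range, ZPS1, a cell surface protein gene and one of the strongest Zap1 targets, had few reads, 5 to 26 per library. It was at 6.32 and 7.36 CPM in modNNN, 4.87 in modNGG, 6.15 in modHNH and 16.2 in modHTH, its highest value. The log2 fold change of ZPS1 was −0.46 in modNGG (SE 0.62), −0.13 in modHNH (0.67) and 1.30 in modHTH (0.55). VEL1, another strong Zap1 target, had 0 to 9 reads in every library, so its levels were not resolved at this depth. Its reads were 9 and 1 in modNNN, 1 in modNGG, 2 in modHNH and 1 in modHTH. The fitted log2 fold changes of VEL1 were all below 0, at −2.62 (SE 1.54), −1.10 (1.39) and −1.86 (1.67) in those 3 groups. ZRG8, also a Zap1 target, was at 67.4 and 91.7 CPM in modNNN, 93.9 in modNGG, 130 in modHNH and 140 in modHTH. Its log2 fold change was 0.87 in modHTH (SE 0.27, edgeR adjusted p = 0.12), and the call was made without the second modNNN library (1.13).

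IZH4, a membrane protein gene linked to zinc homeostasis, ranged from 37.4 to 74.4 CPM and was highest in modHTH (0.61, SE 0.29, edgeR adjusted p = 0.25). ADH1 and ADH3 encode the main fermentative and the mitochondrial alcohol dehydrogenase, zinc enzymes that Zap1 represses in deficient cells. ADH1 was at 5237 to 5889 CPM in the 3 single libraries and at 2882 to 5727 in the other 10. ADH3 went the other way, at 298 to 309 CPM in the single libraries against 373 to 493, and is named because of that separation, which was noticed in the data. Its log2 fold change was −0.37 in modHTH (SE 0.21, edgeR adjusted p = 0.33).

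FET4, a low-affinity importer of iron and zinc that Zap1 also activates, ran from 123 to 201 CPM, lowest in modNGG, the library in which ZRT1 was second highest. COT1, the other vacuolar zinc importer, ran from 28.9 to 58.6 CPM, with both extremes in modNAA. Of 9 iron uptake genes all were tested and edgeR called 0 in the 8 comparisons, with 2 at an unadjusted p under 0.05 in the reporter comparison (18.2% of all genes) and in modNGG (14.4%), 1 in modNAA (6.21%) and modHTH (19.5%) and 0 in the others. In any of these comparisons edgeR called at most 0.38% of all genes, so nothing is read from the 0 calls. DESeq2 also called 0 of the 1 to 9 iron uptake genes that its filter left. FET3, the iron oxidase gene, was lower in the 3 single libraries (368 to 410 CPM) than in the others (422 to 593) and was likewise picked out after its values were seen. Of 4 further alcohol dehydrogenase genes, 3 were tested, while ADH2 had 0 to 6 reads. For these 3 edgeR and DESeq2 called 0, where edgeR called at most 0.38% of all genes in any comparison. At an unadjusted p under 0.05 there were 2 of the 3 in the reporter comparison (18.2% of all genes), 1 in modHNH (15.8%), 0 in the other comparisons and 1 in the test of any difference (19.2%).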

How the data were processed

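Per the labels' protocols, 5′-phosphorylated RNA ends were sequenced by HT-5PSeq from 16 libraries in 8 groups. The deposited table holds the authors' whole-number read counts per transcript, with no normalization. The tools were HISAT2, featureCounts, cutadapt, SAMtools, bedtools, FastQC and MultiQC, on the sacCer3 (R64) genome, per the submitters' processing notes. Neither the strand setting nor any collapsing of duplicate reads is given in the sources used here. The 4 deposited tables of read positions held none of these genes and were not used.

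Libraries under 1000 reads were left out, which kept 13 of 16. Plasmid rows stayed out of library totals. Genes were fitted with edgeR 4.0.16 in R 4.3.3 (TMM, filterByExpr, glmQLFit, glmQLFTest), with a term for group alone, and p-values were adjusted by Benjamini-Hochberg over 5268 host genes at 0.05. A lone library is assumed to vary like the others. The SE of a log2 fold change is its size divided by the square root of the F statistic. Similarity and spread used log2 TMM CPM with a prior count of 2. CPM in the text is reads per 1000000 host reads. Symbols came from RefSeq's R64 table, which matched 5550 of 5696 host rows. Coding positions come from it and transcript positions from the deposited annotation. No sequence of these genes was used here. The fits were also run on simulated counts with the same spread for every gene, which does not match the wide spread of ZRT1.

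The members and the gene lists (other zinc genes, iron uptake, alcohol dehydrogenases) were chosen with earlier results of these data known. Named are the 6 members, any list gene that passed, the 5 other zinc genes with the widest range, the 8 genes most like ZRT1 and 4 least like it, and the chromosomal neighbours of ZRT1 and ADH4. Genes named outside this rule, for a separation, an overlap, a role beside the members or a rank in the control, were chosen after their values were seen. Alternatives were DESeq2 1.42.0, library totals, no filter, all 16 libraries, only groups with 2 usable libraries, a replicate block, each library left out and, chosen after seeing the data, removal of the coding length trend by lowess.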

Additional observations from a re-analysis of the deposited data

How the results depend on the processing

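Of 924 recomputed log2 fold changes of the 6 genes, 904 kept their sign and 887 moved by less than the SD between libraries. Many of these left out a library of a group outside the comparison, which by design hardly moves the value. The single modNGG, modHNH and modHTH libraries were never left out of their own comparisons. These counts are therefore no measure of how firm the values are. ZRT1 in all reporter groups against the control, reported as −0.14, was −0.64 over groups with 2 usable libraries and −0.59 to 0.62 with each library left out. In WT against the control it was −0.91 to 0.29 with each library left out, and 0.29 without the first control library. Its levels on the TMM scale moved by less than 1 SD (modHTH 477 against 460). Of the 8 genes most like ZRT1, 2 stayed among the first 8 by Spearman's rho and 3 to 7 with each library left out, the fewest without the first control library.

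The other zinc genes had 0 calls in the reported fit, where at most 0.38% of all genes were called in any comparison. Calls of 1 gene appeared in the reporter comparison lower with DESeq2 and higher with all 16 libraries (ZRG17), and in modHTH (ZRG8) and the test of any difference with all 16. With each library left out there were 0 to 1 calls, higher or lower, in the reporter comparison (TSA1, without the first WT or first modNNN library), modNGG, modHNH and modHTH, and 0 to 2 in the test of any difference. Those in modNGG, modHNH and modHTH came without the second modNNN library, and were ADE17 in modNGG, ADE17 and ZRG8 in modHNH and ZRG8 in modHTH.

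The counts over all genes that serve as background moved widely. Calls reached 101 higher and 221 lower for reporter against control (20 lower reported), 10 and 31 in WT (2 lower), 11 and 3 in modNNN against WT (1 higher), 0 and 1 in modNTN, 0 and 7 in modNAA, 203 and 154 in modNGG, 284 and 244 in modHNH and 379 and 290 in modHTH (3 higher). The lowest count was 0 in each except WT lower, which was 1. Those of any difference ran from 0 to 915 (1 reported).

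Whether the replicate numbers pair the libraries was not settled. Over 10 pairs of groups, deviations of same-numbered libraries correlated at −0.37 to 0.34, above 0.1 in 6. With the replicate block ZRT1 in modHTH was 1.76 and not called, calls over all genes were 61 lower for reporter against control, 4 lower in modHNH and 0 higher in modHTH, and 4 genes passed for any difference. Depth limits ZAP1 and ADH4, whose lowest libraries held 35 and 51 reads, and the 3 groups with 1 library have no replicate check of their own.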
